A study of Mus musculus with 8 samples.

Results

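The metallothioneins and zinc transporters examined here are 8 genes of cellular zinc handling: the metallothioneins Mt1 and Mt2, the metal-sensing transcription factor Mtf1, the ZnT-family exporters Slc30a1 and Slc30a5, and the ZIP-family importers Slc39a1, Slc39a6 and Slc39a10. They were picked by symbol and not by a measured value. All 8 were measured, by 13 probes, among the 21528 genes tested. The RNA came from J774.1, a macrophage-like mouse line of BALB/c origin, on 8 arrays. Controls, cells given 10 µM isorhamnetin, cells given 10 µM tamarixetin and cells given 1 µM Torin1 had 2 arrays each, and every compound was left on for 6 h. The sources used here give neither a time nor a vehicle for the controls, and the design text calls the 2 arrays of a group biological replicates without naming the cultures, so p-values measure the spread between these samples. Isorhamnetin and tamarixetin are isomeric methyl ethers of the plant flavonol quercetin, with the methyl on neighbouring oxygens of the same ring, and Torin1 is a synthetic inhibitor of the kinase mTOR.

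Cells keep free zinc very low. Metallothioneins are small cysteine-rich proteins that bind zinc and copper, ZnT proteins move zinc out of the cytosol, and ZIP proteins move it in. When free zinc rises, the zinc-finger factor encoded by Mtf1 binds metal response elements in DNA and switches on Mt1, Mt2 and Slc30a1, so these 3 genes are commonly read as reporters of zinc load. In macrophages the same system is used to withhold zinc from, or load it onto, engulfed microbes, and metallothioneins also respond to oxidants and glucocorticoids.

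The DNA before Mt1, Mt2 and Slc30a1 is shown because these are the genes named above as switched on by the factor that Mtf1 encodes. Each run is the 250 bases before the gene's RefSeq start on build GRCm38.p6, on the gene's own strand. Those starts were taken as given and were not checked against measured transcript starts. Capitals mark the metal response element core, searched as TGCACNC or TGCGCNC on both strands.
Mt1, chr8:94178839-94179088, plus strand: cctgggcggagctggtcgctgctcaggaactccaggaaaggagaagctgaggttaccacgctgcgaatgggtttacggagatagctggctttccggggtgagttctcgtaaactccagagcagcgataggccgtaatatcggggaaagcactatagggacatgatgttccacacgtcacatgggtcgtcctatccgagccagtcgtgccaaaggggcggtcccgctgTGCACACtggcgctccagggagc
Mt2, chr8:94172368-94172617, plus strand: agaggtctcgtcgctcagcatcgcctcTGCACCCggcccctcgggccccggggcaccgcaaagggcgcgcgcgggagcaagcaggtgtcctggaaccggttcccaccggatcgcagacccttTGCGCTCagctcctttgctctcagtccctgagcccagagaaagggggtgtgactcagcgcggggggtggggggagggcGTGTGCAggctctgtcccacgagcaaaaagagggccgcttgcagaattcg
Slc30a1, chr1:191906531-191906780, plus strand: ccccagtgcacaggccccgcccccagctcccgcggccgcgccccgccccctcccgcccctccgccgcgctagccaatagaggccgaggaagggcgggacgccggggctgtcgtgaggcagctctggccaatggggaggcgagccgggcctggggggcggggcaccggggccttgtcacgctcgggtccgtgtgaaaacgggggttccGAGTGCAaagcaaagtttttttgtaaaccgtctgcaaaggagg
Mt2 held 3 such cores before its RefSeq start, and Mt1 and Slc30a1 held 1 each. For Mt1, cores also lay at bases 3 to 9 and 21 to 27 after that start. Its count before the start therefore depends on where the start is placed. In the full window of 300 bases, which adds 50 bases after the start, Mt2 held 4 cores, Mt1 held 3 and Slc30a1 held 2. Of 32851 promoter windows of that length in the RefSeq table, 25.7% held at least 1 core, 7.11% at least 2, 1.97% at least 3 and 0.517% at least 4. Slc30a5 held 1 core, and Mtf1, Slc39a1 and the 2 windows of Slc39a10 held 0, so 4 of the 7 genes with a window in the table held a core. Slc39a6 was not among them. The antioxidant response core TGACNNNGC was found once or more in 12.4% of all windows, and among the 7 genes in Mt2, Slc30a1, Slc30a5 and Slc39a1. A match outside the 300 bases would be missed. The E-box CACGTG, present in 7.15% of all windows, was found in Slc30a5 alone of the 7. Both of these were searched on both strands too, and no match of one motif overlapped a match of another in these windows. Mt2 and Mt1 lie next to each other on chromosome 8, with 6471 bases between their starts. A match is a match of letters, and the arrays measured no binding.

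Levels are given as log2 of the background-corrected spot signal minus the 75th percentile of that array, called the relative level below. A difference of 1 on this scale is a doubling, and levels of different probes are not comparable. The 13 probes were well above background on all 8 arrays and 0 of their spots were saturated. Replicate arrays correlated at 0.992 to 0.997 over all genes. All arrays lay on 1 slide, controls and isorhamnetin in slide row 1 and tamarixetin and Torin1 in slide row 2, and within a row each group held neighbouring positions, so position and group cannot be told apart in any comparison. Torin1 was also compared with tamarixetin, which lay in the same row. All 10 macrophage markers were well above background on all 8 arrays, against 4 of 26 measured markers of T, B, neutrophil, fibroblast, epithelial and endothelial cells, of which 14 were above it on no array; the 4 were Cd3e, Cd4, S100a8 and Elane. The summed signal of the macrophage markers ran from 270655 to 304626 in controls, 281194 to 289266 with isorhamnetin, 286811 to 320577 with tamarixetin and 306099 to 321618 with Torin1. Single macrophage markers went both ways with Torin1 against control, 4 higher and 2 lower by limma's test, from Fcgr1 at -2.23 (adjusted p = 0.000206) to Adgre1 at 1.43 (adjusted p = 0.000470) on the log2 scale. Some listed markers of other cell types with a probe on the array are not among the 26. The summed signal of the 26 ran from 3022 to 3331 in controls, 2500 to 2726 with isorhamnetin, 2650 to 3085 with tamarixetin and 2250 to 2293 with Torin1. Of 11 other markers tested, Dcn and S100a8 rose and Cd4, Elane and Kdr fell with Torin1 against control, where 49.4% of all genes passed. Kdr was well above background on 4 arrays, those of controls and isorhamnetin, and Dcn on 5. Both were dim and entered the test through groups where they were higher. The part of either marker list in the results was not tested.

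With Torin1, Mt1, Mt2 and Slc30a1 rose on their used probes, and Mtf1, the importer Slc39a1 and the exporter Slc30a5 fell. Against control the Mt1 call was lost under median scaling (0.18, limma adjusted p = 0.187), among other settings. The Slc30a5 call was lost under quantile normalization (-0.16, limma adjusted p = 0.0951), among others. Mtf1 probe A_52_P236072 stood at 0.00 against control. Slc39a6 rose by 0.17 against control but stood at -0.01 when arrays were scaled on their median, and Slc39a10 was lower without passing the test. In all, 7 of 8 genes passed limma's test at an adjusted p under 0.05 against control, 4 higher and 3 lower, where 49.4% of all genes tested passed, 19.3% higher and 30.1% lower. Against tamarixetin the same 7 genes passed in the same directions, where 43.2% of all genes passed, 19.1% higher and 24.1% lower. Both comparisons use the same Torin1 arrays. The arrays of the 2 groups did not overlap for any of the 8 genes, 4 above and 4 below, in either comparison; that held for 79.3% of all genes against control (31.5% above, 47.8% below) and for 71.3% against tamarixetin (32.7% above, 38.5% below). The count against control was 4 without control replicate 1, without Torin1 replicate 1 or with no filter on dim probes, and the count against tamarixetin was 4 without Torin1 replicate 1 or with no filter. Since so many genes passed with Torin1, the sizes below are given beside those of all genes. The median log2 fold change of all genes was -0.10 against control and -0.03 against tamarixetin, and the middle range of genes, from the lower to the upper quartile, ran from -0.39 to 0.26 and from -0.30 to 0.28.

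**Figure D1:**
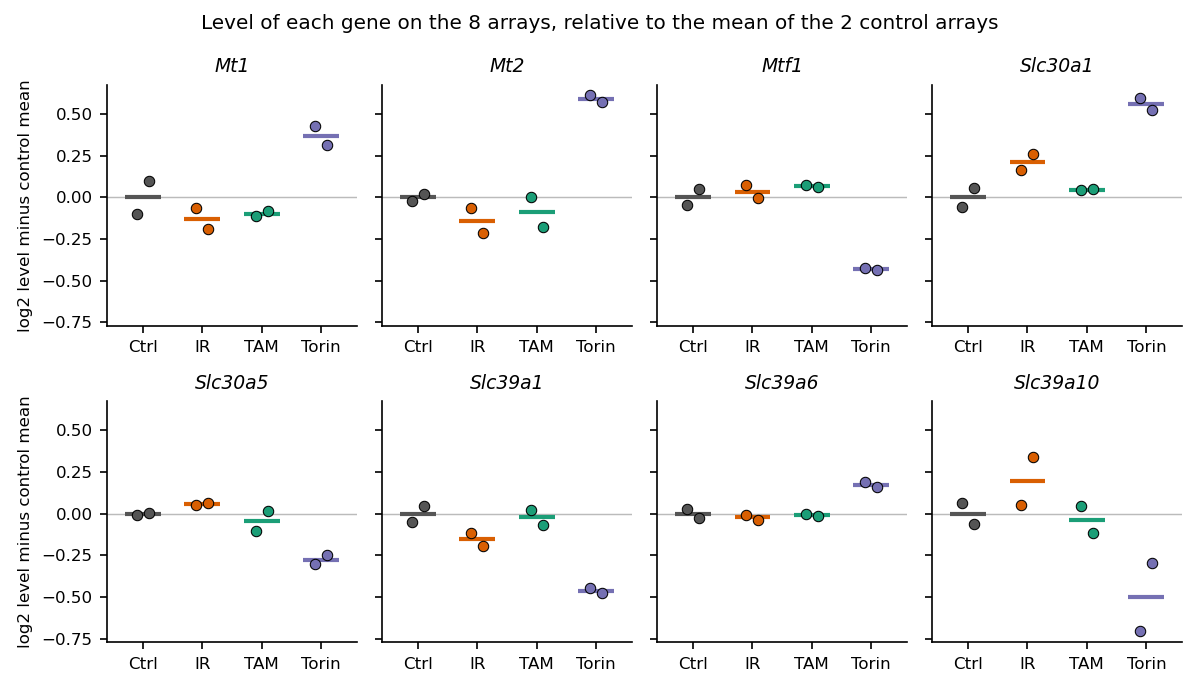
Relative level (log2) of the 8 genes on each array minus the mean of the 2 control arrays, by group (Ctrl, control; IR, isorhamnetin; TAM, tamarixetin; Torin, Torin1); points are arrays and bars are group means of 2. The Torin1 arrays of Mt1, Mt2, Slc30a1 and Slc39a6 lie above all other arrays and those of Mtf1, Slc30a5, Slc39a1 and Slc39a10 below all others; Slc39a6 with Torin1 turns to -0.01 under median scaling.

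The metallothioneins come first. Mt2, measured by 1 probe, had relative levels of 7.49 and 7.53 in controls, 7.45 and 7.30 with isorhamnetin, 7.51 and 7.33 with tamarixetin, against 8.12 and 8.09 with Torin1. The Torin1 arrays lay above the other 6. Both isorhamnetin arrays lay below both controls, as they did for 24% of all genes. Mt2 rose 1.51-fold with Torin1 against control (95% interval 1.30 to 1.74, log2 fold change 0.59, SE 0.0852, limma adjusted p = 0.00303). Against tamarixetin it rose 1.60-fold (1.39 to 1.86, adjusted p = 0.00209). Of all genes, 13.1% had a higher fold change than Mt2 against control and 10.2% against tamarixetin. Its calls held under all 20 other settings, with log2 fold changes against control from 0.41 to 0.69.

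Mt1 was measured by 2 probes. The probe with the higher signal, used for the gene, gave relative levels of 8.10 and 8.30 in controls, 8.14 and 8.01 with isorhamnetin, 8.09 and 8.12 with tamarixetin, against 8.63 and 8.51 with Torin1. Again both Torin1 arrays lay above the other 6. The rise was 1.29-fold against control (1.105 to 1.51, log2 fold change 0.37, SE 0.0908, adjusted p = 0.0195) and 1.38-fold against tamarixetin (1.18 to 1.62, adjusted p = 0.00964). The second probe, A_52_P423810, matched a predicted transcript record of Mt1 and gave -1.94 and -2.35 in controls, -1.96 and -1.98 for isorhamnetin, -1.997 and -2.18 for tamarixetin, against -1.09 and -1.26 with Torin1. Its Torin1 arrays were again the highest, with a log2 fold change of 0.97 against control (0.60 to 1.34, adjusted p = 0.00381) and 0.91 against tamarixetin (0.54 to 1.28, adjusted p = 0.00535). With Torin1 both probes were higher, by different sizes, and that difference was not tested. Among the other 3 groups their order differed: the used probe had its highest mean in controls (8.20) and its lowest with isorhamnetin (8.07), and the second probe had its highest with isorhamnetin (-1.97) and its lowest in controls (-2.15). The call of the used probe against control was lost without control replicate 1 (log2 fold change 0.27, adjusted p = 0.0807), without Torin1 replicate 1 (0.31, 0.0970), with median scaling (0.18, 0.187) and with no filter on dim probes (0.37, 0.0810), and the mean of both probes gave 0.67. Against tamarixetin it was lost without Torin1 replicate 1 (0.41, 0.0553) and with no filter (0.47, 0.0508).

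Mtf1, the zinc sensor itself, went the other way. Its used probe gave 3.25 and 3.34 in controls, 3.37 and 3.29 with isorhamnetin, 3.37 and 3.35 with tamarixetin, against 2.87 and 2.86 with Torin1. The Torin1 arrays lay below the other 6. Mtf1 fell by 0.43 on the log2 scale against control (-0.58 to -0.28, SE 0.0592, adjusted p = 0.00261) and by 0.50 against tamarixetin (-0.64 to -0.35, adjusted p = 0.00182), and both calls held under all 20 other settings. Its 3 probes did not behave alike. Probe A_52_P467266 fell by 0.54 against control (-0.82 to -0.27, adjusted p = 0.0106), while probe A_52_P236072 gave 0.03 and 0.18 in controls against 0.09 and 0.12 with Torin1, a log2 fold change of 0.00 (-0.17 to 0.18, adjusted p = 0.979). Without Torin1 replicate 2 or control replicate 2 the call of A_52_P467266 against control was lost (-0.46, adjusted p = 0.0532, and -0.44, adjusted p = 0.0565). Which Mtf1 transcripts the 3 probes read was not analysed here.

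**Figure D2:**
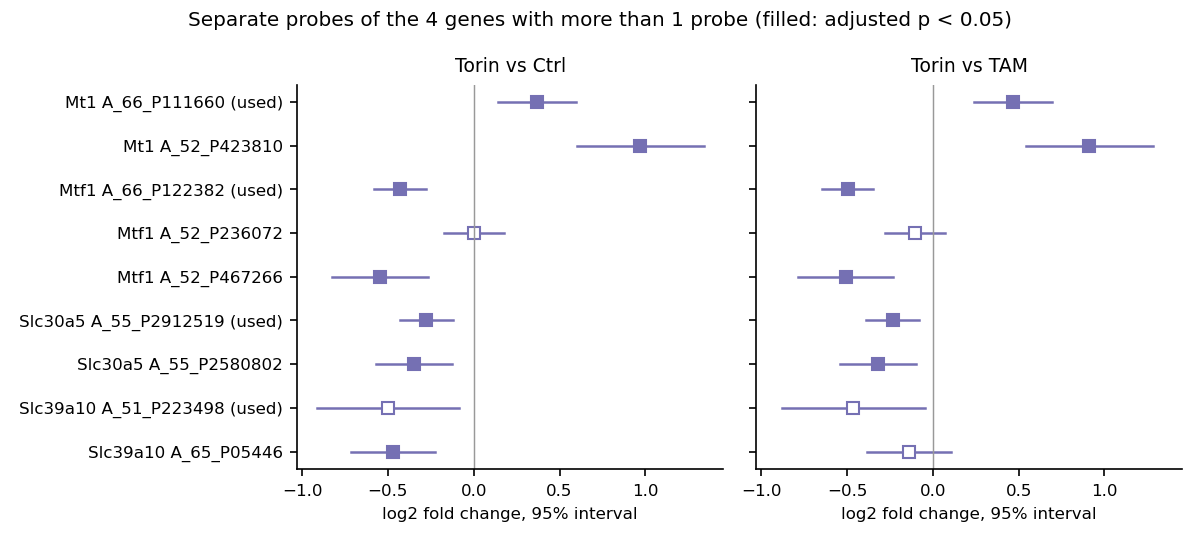
Log2 fold change with its 95% interval for each probe of the 4 genes that have more than 1, for Torin1 against control (left) and against tamarixetin (right); filled squares have an adjusted p under 0.05. Both Mt1 probes lie above 0, both Slc30a5 probes below it, and 1 of the 3 Mtf1 probes lies at 0.00 against control.

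Among the exporters, Slc30a1 encodes the transporter that carries zinc out through the plasma membrane. It gave relative levels of -0.37 and -0.26 in controls, -0.15 and -0.06 with isorhamnetin, -0.27 and -0.27 with tamarixetin, against 0.28 and 0.21 with Torin1. The Torin1 arrays lay above all others, and the isorhamnetin arrays lay between them and the overlapping control and tamarixetin arrays. Slc30a1 rose 1.47-fold with Torin1 against control (1.31 to 1.66, log2 fold change 0.56, SE 0.0679, adjusted p = 0.00170) and 1.43-fold against tamarixetin (1.27 to 1.60, adjusted p = 0.00254). Of all genes, 14.0% had a higher fold change against control. Both calls held under all 20 other settings, with 0.37 against control under median scaling as the lowest value.

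Slc30a5 encodes a transporter that loads zinc into the secretory pathway. It gave 3.81 and 3.82 in controls, 3.87 and 3.88 with isorhamnetin, 3.71 and 3.84 with tamarixetin, against 3.52 and 3.57 with Torin1, whose arrays were the lowest. Slc30a5 fell by 0.28 on the log2 scale against control (-0.43 to -0.13, SE 0.0607, adjusted p = 0.0132) and by 0.23 against tamarixetin (-0.38 to -0.08, adjusted p = 0.0264). This is a small change for Torin1, since 58.6% of all genes changed by more, up or down, against control. The second probe, A_55_P2580802, fell by 0.35 (-0.57 to -0.13, adjusted p = 0.0222) against control, a call lost without control replicate 1 (-0.25, 0.0867) or Torin1 replicate 1 (-0.30, 0.107). The call of the used probe against control was lost in 5 of 20 other settings, among them quantile normalization (-0.16, adjusted p = 0.0951) and leaving out control replicate 1 (-0.28, 0.0512), control replicate 2 (-0.27, 0.0619) or Torin1 replicate 1 (-0.25, 0.0740). Against tamarixetin it was lost in 6 of 20, among them without tamarixetin replicate 2 (-0.17, 0.0953), Torin1 replicate 1 (-0.21, 0.127) or Torin1 replicate 2 (-0.26, 0.0741).

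The importers split. Slc39a1, which takes up zinc at the cell surface, gave 5.46 and 5.55 in controls, 5.39 and 5.31 with isorhamnetin, 5.53 and 5.44 with tamarixetin, against 5.06 and 5.03 with Torin1. The Torin1 arrays were the lowest, and the isorhamnetin arrays lay below the controls. Slc39a1 fell by 0.46 on the log2 scale with Torin1 against control (-0.62 to -0.30, SE 0.0649, adjusted p = 0.00274) and by 0.44 against tamarixetin (-0.60 to -0.28, adjusted p = 0.00366). The calls held under all 20 other settings, at -0.23 and -0.25 under quantile normalization.

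Slc39a6 and Slc39a10 encode closely related importers that can work as a pair. Slc39a6 gave 3.84 and 3.79 in controls, 3.81 and 3.78 with isorhamnetin, 3.81 and 3.80 with tamarixetin, against 4.01 and 3.97 with Torin1. The 6 arrays without Torin1 lay close together and the Torin1 arrays lay above them. Slc39a6 rose 1.13-fold with Torin1 against control (1.03 to 1.23, SE 0.0505 on the log2 scale, adjusted p = 0.0332), a direction that turned to -0.01 (adjusted p = 0.934) under median scaling. The call was lost in 9 further settings of 20, among them leaving out control replicate 1 (0.20, adjusted p = 0.0661), control replicate 2 (0.15, 0.139), Torin1 replicate 1 (0.16, 0.148), Torin1 replicate 2 (0.19, 0.0962) or either isorhamnetin replicate (0.17, 0.0526). Against tamarixetin Slc39a6 rose 1.13-fold (adjusted p = 0.0330), a call lost in 13 of 20 other settings, among them leaving out any 1 of the 8 arrays (adjusted p from 0.0504 to 0.151), with 0.07 under median scaling. Of all genes, 72.8% changed by more than Slc39a6, up or down, with Torin1 against control.

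Slc39a10 gave 0.21 and 0.08 in controls, 0.20 and 0.49 with isorhamnetin, 0.19 and 0.03 with tamarixetin, against -0.56 and -0.15 with Torin1. The Torin1 arrays were the lowest but also the furthest apart. The log2 fold change of -0.50 against control (-0.92 to -0.08, SE 0.168, adjusted p = 0.0532) did not pass the test, nor did -0.46 against tamarixetin (-0.88 to -0.05, adjusted p = 0.0734). It passed against control in 6 of 20 other settings, including without Torin1 replicate 2 (-0.71, adjusted p = 0.0250). The second probe, A_65_P05446, gave -1.91 and -1.97 in controls, -1.67 and -1.66 with isorhamnetin, -2.39 and -2.14 with tamarixetin, against -2.48 and -2.34 with Torin1. On this probe the tamarixetin and Torin1 arrays overlapped, the controls lay above both, and the isorhamnetin arrays lay highest. It fell by 0.47 with Torin1 against control (-0.72 to -0.23, adjusted p = 0.0113), a call lost without control replicate 1 (-0.44, 0.0579) or Torin1 replicate 1 (-0.40, 0.0613) and under normexp background correction (-0.19, 0.0788). Against tamarixetin its log2 fold change was -0.14 (-0.39 to 0.10, adjusted p = 0.307).

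Scaling on the array median moved the median of all genes with Torin1 from -0.10 to -0.28 against control and from -0.03 to -0.14 against tamarixetin. Under that scaling the members called against control were 2 higher and 4 lower in place of 4 and 3, and 22.0% in place of 39.0% of all called genes were higher. The distance of a gene from the median of all genes is not changed by this scaling. With Torin1 against control Mt2 stood 0.69 above that median, Slc30a1 0.66, Mt1 0.47 and Slc39a6 0.27 above it. Slc39a10 stood at -0.40, Slc39a1 at -0.36, Mtf1 at -0.33 and Slc30a5 at -0.18 on the same scale.

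**Figure D3:**
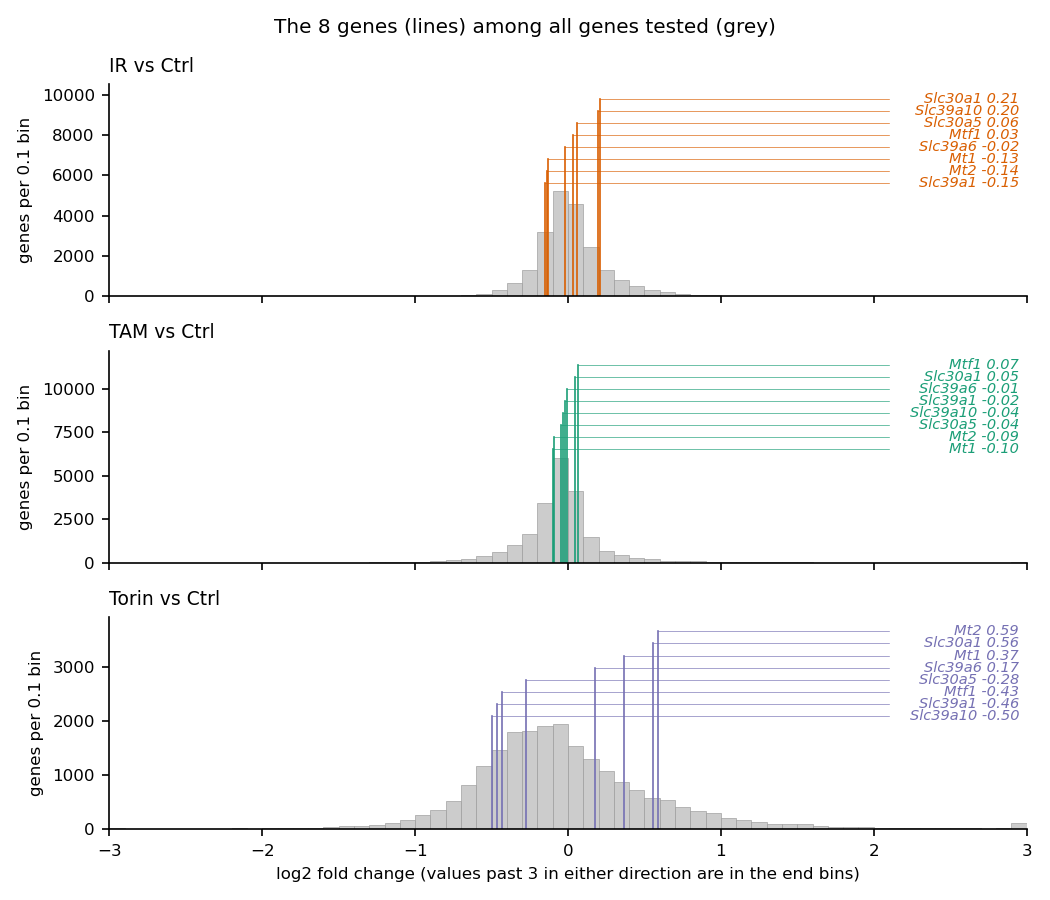
Log2 fold change of the 8 genes (coloured lines, with their values) among all 21528 genes tested (grey bars, genes per 0.1 bin, values past 3 in the end bins), for isorhamnetin, tamarixetin and Torin1 against control. With Torin1 the grey distribution is wide and the 8 genes lie from -0.50 to 0.59 within it; with the other compounds they lie between -0.15 and 0.21; the value 0.17 of Slc39a6 with Torin1 turns to -0.01 under median scaling.

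With isorhamnetin none of the 8 genes passed the test. Of the 8 genes, 0 were called against control, where 0.543% of all genes were called, and 1 gene, Slc30a1, had an unadjusted p under 0.05 (15.4% of all genes had). Slc30a1 stood 1.16-fold above control (1.03 to 1.30, limma adjusted p = 0.242), with both arrays above both controls, as 25.7% of all genes were. On their used probes the metallothioneins stood slightly below control. Mt1 had a log2 fold change of -0.13 (-0.35 to 0.10, adjusted p = 0.546) and Mt2 of -0.14 (-0.35 to 0.07, adjusted p = 0.485). These upper bounds correspond to folds of 1.07 for Mt1 and 1.05 for Mt2. The second Mt1 probe gave 0.18 (-0.19 to 0.54, adjusted p = 0.646), so the sign for Mt1 differed between its probes. Slc39a1 had a log2 fold change of -0.15 (-0.31 to 0.01, adjusted p = 0.348), with both isorhamnetin arrays below both controls, as 24% of all genes were. Slc39a10 had 0.20 on its used probe, where the arrays of the groups overlapped. Its second probe had 0.27 (0.03 to 0.52, limma unadjusted p = 0.0345, adjusted p = 0.314).

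In the same arrays 7 reference genes of the NRF2 oxidant response were read beside the 8 genes. All 7 NRF2 reference genes rose with isorhamnetin, a list chosen with results of these data known, and the count ranged from 0 to 7 over the other settings, with 0 when the 4 arrays of the groups compared were fitted alone and 2 without either control replicate. Of all genes, 0.543% were called in this comparison. Nqo1, 1 of the 7, was well above background on the 2 isorhamnetin arrays alone. It entered the test only through the group where it was high, so its rise adds no support. Hmox1, the haem-degrading enzyme, rose by 1.24 on the log2 scale (SE 0.108, adjusted p = 0.0201) and Slc7a11, the cystine carrier, by 1.61 (SE 0.0572, adjusted p = 0.00413). The Hmox1 call was lost in 10 of 20 other settings, among them leaving out any 1 array of controls, isorhamnetin or Torin1 (adjusted p from 0.0817 to 0.132), with sizes from 1.17 to 1.30. Hmox1 is, like Mt1 and Mt2, a gene known to respond to heavy metals and oxidants. Its relative levels were 6.70 and 6.72 with isorhamnetin against 5.54 and 5.40 in controls, and no link to the metallothioneins was tested.

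With tamarixetin none of the 8 genes passed the test. Against control 0 of 8 were called, where 0.079% of all genes were, and 0 had an unadjusted p under 0.05, against 14.3% of all genes. Log2 fold changes ran from -0.10 for Mt1 (-0.32 to 0.13, adjusted p = 0.645) to 0.07 for Mtf1 (-0.08 to 0.21, adjusted p = 0.629). Mt2 was at -0.09 (-0.30 to 0.12) and Slc30a1 at 0.05 (-0.12 to 0.21). The second Slc39a10 probe was at -0.33 (-0.58 to -0.09, limma unadjusted p = 0.0167, adjusted p = 0.271). The counts of 0 cover the used probes alone.

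The 2 isomers were compared at the same dose and time. Of the 8 genes, 0 were called between isorhamnetin and tamarixetin, where 0.827% of all genes were called, and 0 had an unadjusted p under 0.05, against 13.3% of all genes. The 8 differences, with p-values adjusted over all genes, ran from -0.13 for Slc39a1 (-0.29 to 0.03, adjusted p = 0.461) to 0.23 for Slc39a10 (-0.18 to 0.65, adjusted p = 0.624). Slc30a1 stood 1.12-fold higher with isorhamnetin (0.998 to 1.26, adjusted p = 0.382). Its 2 isorhamnetin arrays lay above the 2 tamarixetin arrays, as they did for 6589 of the 21528 genes tested. Mt1 differed by -0.03 (-0.26 to 0.20) and Mt2 by -0.05 (-0.26 to 0.16), and the intervals leave room for differences of those sizes in either direction. On the second Slc39a10 probe, which the counts of 0 leave out, isorhamnetin stood 0.60 above tamarixetin (0.36 to 0.85, limma unadjusted p = 0.00106, adjusted p = 0.0894). That difference passed in 3 of 19 other settings.

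**Figure D4:**
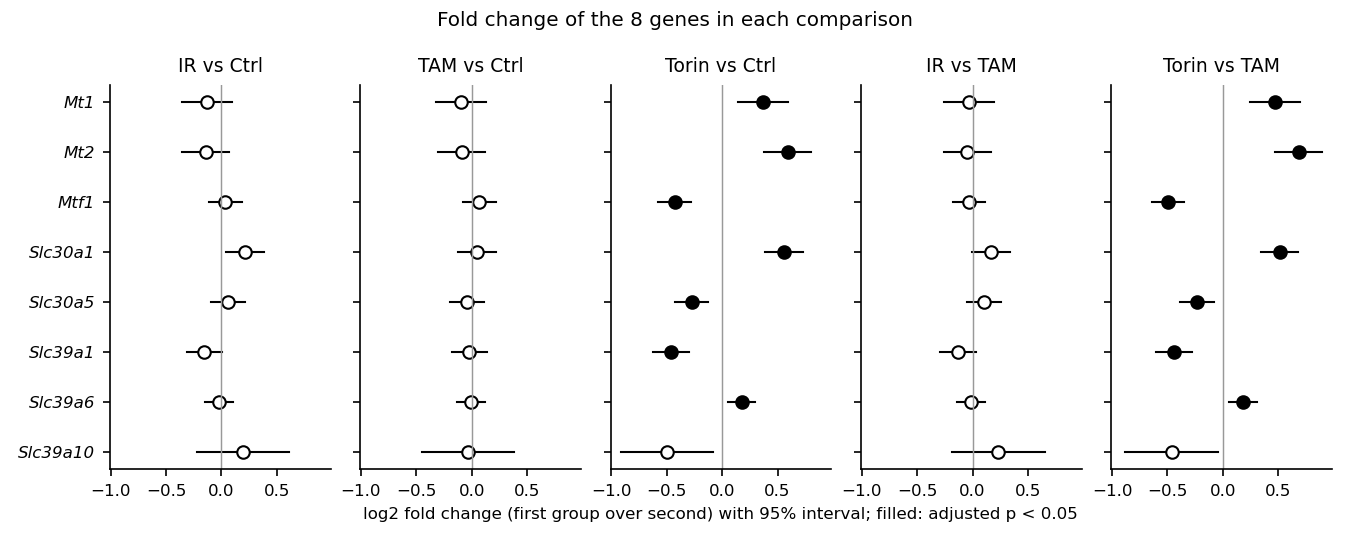
Log2 fold change of the 8 genes with 95% intervals in the 5 comparisons, the group named first over the second; filled points have an adjusted p under 0.05. Filled points appear in the panels with Torin1 alone, 7 in each; Slc39a6 against control turns to -0.01 under median scaling.

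Other genes of zinc transport were read from lists of the remaining family members. Of 8 further ZnT exporters 5 were tested. With Torin1 against control, where 19.3% of all genes rose and 30.1% fell, 0 rose and 1 fell. The 1 was Slc30a7, a transporter of the Golgi (log2 fold change -0.36, SE 0.0661, limma adjusted p = 0.00708). Of 11 further ZIP importers 8 were tested, and with Torin1, beside the same shares of all genes, 0 rose and 4 fell. The latter were Slc39a11 (-0.61, adjusted p = 0.00129), Slc39a7 (-0.52, adjusted p = 0.00233), Slc39a13 (-0.50, adjusted p = 0.0117) and Slc39a4 (-0.30, adjusted p = 0.0350). The median fold change over the 8 tested importers was -0.27, beside -0.10 over all genes. Slc39a7 releases zinc from the endoplasmic reticulum and Slc39a13 from vesicles and the Golgi. Slc39a7 had relative levels of 6.33 and 6.47 in controls and 5.87 and 5.89 with Torin1, without overlap. Of all genes, 47.8% were lower without overlap in that comparison. Against tamarixetin the counts were again 1 of 5 exporters and 4 of 8 importers lower, with 0 higher. There 19.1% of all genes were higher and 24.1% lower. The importer count was 2 against control without control replicate 2, and 2 against tamarixetin without either tamarixetin replicate, without Torin1 replicate 2 or with no filter on dim probes. Against tamarixetin the Slc39a13 call was lost in 5 of 20 other settings and the Slc39a4 call in 4 of 19. The Slc39a4 call with Torin1 was lost in 11 of 19 other settings, with -0.22 (adjusted p = 0.154) without Torin1 replicate 2, -0.21 (0.151) without control replicate 2 and -0.30 without any 1 of the isorhamnetin (0.0601) or tamarixetin (0.0522) arrays. The Slc39a13 call was lost without control replicate 2 (-0.44, 0.0654).

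Slc39a4, best known as the importer of the gut, was the 1 zinc gene called with isorhamnetin, and it is not among the 8. Its relative levels were 2.83 and 3.02 in controls, 3.75 and 3.74 with isorhamnetin, 2.97 and 3.01 with tamarixetin, against 2.71 and 2.54 with Torin1. The isorhamnetin arrays lay above the other 6. It rose by 0.82 on the log2 scale (SE 0.0890, adjusted p = 0.0353) against control and by 0.75 against tamarixetin (adjusted p = 0.0367). The size stayed between 0.73 and 0.91 against control over the other settings, but the call was lost in 12 of 19, including on leaving out any of the 8 arrays (adjusted p up to 0.162 among them). Against tamarixetin the size stayed between 0.70 and 0.77, but that call was lost in 10 of 19 other settings, including on leaving out any of the 8 arrays. Of the 8 further ZIP genes tested, 1 rose with isorhamnetin and 0 with tamarixetin against control, where 0.543% and 0.079% of all genes were called.

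Copper handling was read because metallothioneins bind copper as well as zinc. All 11 listed genes were tested, and with Torin1 5 rose and 3 fell against control, with a median of 0.14, where 19.3% of all genes rose and 30.1% fell. Slc31a2, a copper transporter of endosomes and lysosomes, had relative levels of 1.99 and 1.96 in controls, 1.85 and 1.79 with isorhamnetin, 1.94 and 1.91 with tamarixetin, against 4.13 and 4.14 with Torin1. It rose 2.16 on the log2 scale (SE 0.0519, adjusted p = 2.6e-05), more than any of the 8 zinc genes. Atp7a, the copper pump of the Golgi and plasma membrane, went from 0.93 and 0.82 in controls to 2.23 and 2.26 with Torin1, a rise of 1.37 (SE 0.0573, adjusted p = 7.9e-05). Cp, the plasma copper oxidase ceruloplasmin, rose by 0.91 (adjusted p = 0.000567), and Commd1, which takes part in sorting copper pumps, fell by 0.56 (adjusted p = 0.000618). These 4 calls held under all 20 other settings. With isorhamnetin and with tamarixetin 0 of 11 copper genes were called against control, where 0.543% and 0.079% of all genes were.

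**Figure D5:**
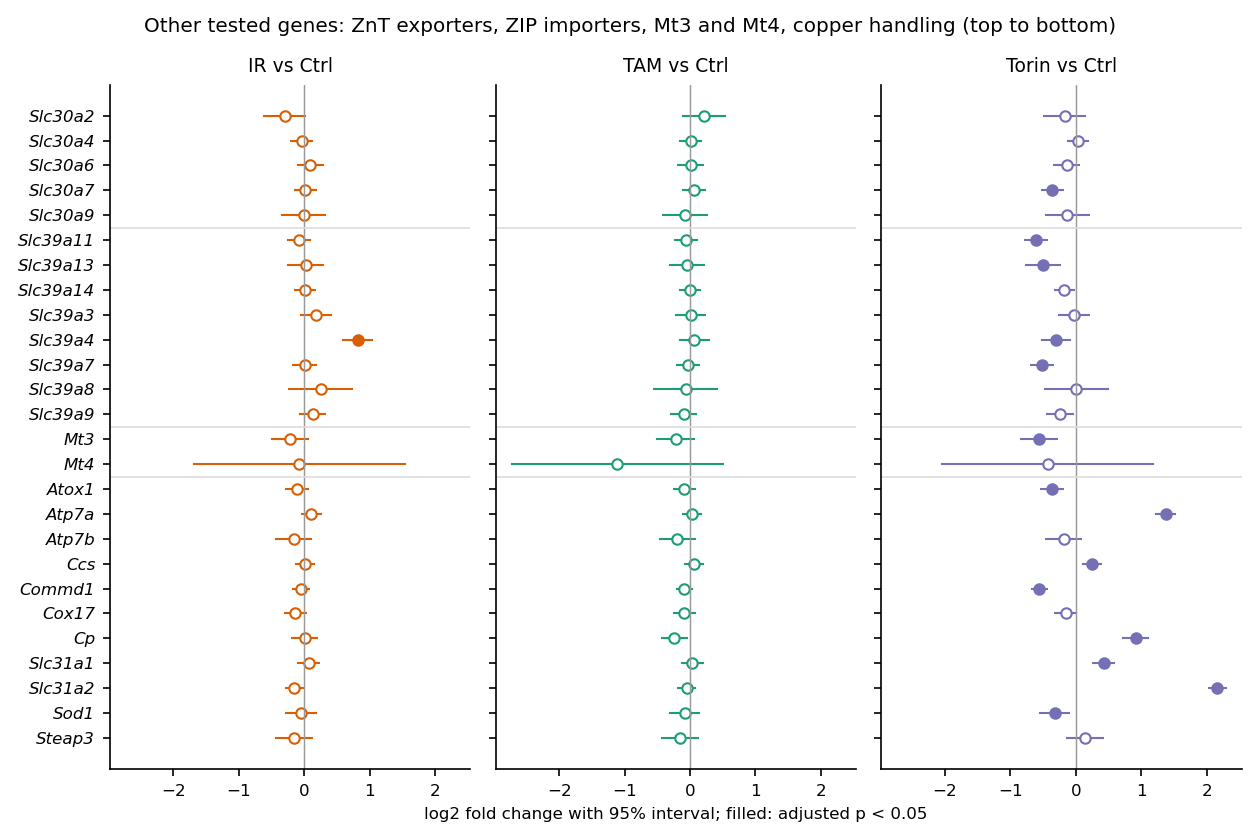
Log2 fold change with 95% intervals of the other tested ZnT exporters, ZIP importers, Mt3 and Mt4, and copper genes against control, 1 panel per compound; filled points have an adjusted p under 0.05. Slc39a4 is the filled point with isorhamnetin at 0.82, none is filled with tamarixetin, and Slc31a2 at 2.16 lies furthest to the right with Torin1.

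The other metallothioneins on the array were Mt3 and Mt4. Mt3, known chiefly from brain, had relative levels of 0.46 and 0.52 in controls and -0.18 and 0.04 with Torin1. It fell by 0.56 on the log2 scale against control (SE 0.112, adjusted p = 0.00954), a call lost without control replicate 2 (-0.53, adjusted p = 0.0533), and it was not called against tamarixetin. Mt4, a gene of stratified epithelia, was dim, at -3.03 and -2.89 in controls and -5.05 and -3.09 with tamarixetin, and was not called in any of the 5 comparisons.

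The genes whose profile over the 8 arrays was most like each of 4 members were found by the root mean square difference, after subtracting the control mean, among 11229 genes with a symbol that were well above background on all arrays. For Mt2 these were Scly at 0.0463, Vav1 at 0.0536 and Tmco6 at 0.0570, where the profile of Mt2 itself had a root mean square of 0.313. For Mt1 they were Eva1b at 0.0507, Cd48 at 0.0578 and Prune2 at 0.0579, all nearer than Mt2, which lay 0.131 from Mt1. For Slc30a1 they were Zfp688 at 0.0492, Gm10767 at 0.0506 and Phyhd1 at 0.0516. For Slc39a10 they were Srrt at 0.0785, Tdg-ps2 at 0.0845 and Cops8 at 0.0877. The points share 8 arrays and their scaling, and no test was made.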

How the data were processed

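The series holds 8 single-colour (Cy3) arrays read, per the submitters' processing notes, with Agilent Feature Extraction 10.7.1.1. Per the file headers, the deposited intensity is a processed signal, background-subtracted and detrended within the array. The authors' deposited log2 values equal log2 signal minus each array's 75th percentile over probes and minus each probe's median, within 0.01, for 99.8% of 56605 probes.

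Symbols came from accessions through RefSeq (32994 of 56605 probes matched). Outlier probes (323) were left out, and probes stayed in (27562) if some group had them well above background on both its arrays. Log2 processed signal minus the array's 75th percentile was tested with limma 3.58.1 (R 4.3.3) on all 8 arrays with group means, with 4 residual degrees of freedom before moderation. The probe with the highest mean stood for a gene. P-values are two-sided, Benjamini-Hochberg adjusted over 21528 genes, or over 27562 probes for single probes, at a threshold of 0.05. An exact test of 2 against 2 cannot go below 0.333. The percentile was first taken over spots and changed to probes after the authors' values were compared, and the spot version is kept as an alternative. On simulated data with 21528 genes, the test for isorhamnetin against control found 26.0% of changes of 0.5 and 64.0% of changes of 1 (log2). Members and lists were chosen with earlier results of these data known: all members are reported, from other lists up to 4 called genes per comparison, and the 3 nearest profiles of 4 members.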

Additional observations from a re-analysis of the deposited data

How the results depend on the processing

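The 8 genes were recomputed under 20 other settings. Mt2, Mtf1, Slc30a1 and Slc39a1 kept direction and call in all 20 in both Torin1 comparisons. The number of genes called was 0 under every setting for the 3 comparisons without Torin1. The reported count with Torin1 was 7 in each comparison. Against control it was 4 to 7 when 1 array was left out and 4 to 8 over the other settings, and against tamarixetin 4 to 6 and 4 to 8. The 4 among the other settings came with no filter on dim probes, and the 8 in both comparisons with a trended robust eBayes and with probes above background on all 8 arrays; the cause was not tested. Calls over all genes ranged from 7231 to 11441 for Torin1 against control, 5587 to 9902 against tamarixetin, 0 to 436 for isorhamnetin against control, 0 to 12526 for tamarixetin against control and 1 to 14021 between the isomers, the last 2 upper values with no filter. With the replicate number as a block, Torin1 gave 3 higher and 3 lower genes against control and against tamarixetin (Slc39a6 adjusted p = 0.0569 and 0.0578); same-numbered arrays deviated together with r from -0.13 to 0.08, so the numbers are not used as pairs.

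In all 48 values changed sign, 1 of them of a called result, Slc39a6 with Torin1 under median scaling. That scaling shifts every gene of a comparison by the same amount. Under the other settings the cause was not tested. The largest of the 48 values was 0.18 in size and the lowest adjusted p 0.192. With quantile normalization the values with a changed sign were, for tamarixetin against control, Slc39a1 0.014, Slc39a6 0.017, Mt1 probe A_52_P423810 -0.078. With array median scaling the values with a changed sign were, for isorhamnetin against control, Mtf1 -0.023, Slc30a5 probe A_55_P2580802 -0.0086, and for tamarixetin against control, Mtf1 -0.0086, Slc30a1 -0.030, Mt1 probe A_52_P423810 -0.018, and for Torin1 against control, Slc39a6 -0.011, Slc7a11 -0.15, Mtf1 probe A_52_P236072 -0.18, and for isorhamnetin against tamarixetin, Slc39a6 0.0034. With 75th percentile over spots the values with a changed sign were, for tamarixetin against control, Slc39a6 0.0092. With normexp background correction the values with a changed sign were, for isorhamnetin against control, Slc39a6 0.0052, Mt1 probe A_52_P423810 -0.062, Slc30a5 probe A_55_P2580802 -0.032, and for tamarixetin against control, Slc39a6 0.037, Mt1 probe A_52_P423810 -0.15, and for isorhamnetin against tamarixetin, Mtf1 0.025, Slc30a5 probe A_55_P2580802 -0.0019. With mean of a gene's probes the values with a changed sign were, for isorhamnetin against control, Mt1 0.024 and for isorhamnetin against tamarixetin, Mt1 0.044. Leaving out 1 array, the ranges that crossed 0 for isorhamnetin against control were Mtf1 -0.013 to 0.081, Slc39a6 -0.048 to 0.0042, Mt1 probe A_52_P423810 -0.028 to 0.38, Slc30a5 probe A_55_P2580802 -0.056 to 0.15. Leaving out 1 array, the ranges that crossed 0 for tamarixetin against control were Slc30a1 -0.012 to 0.10, Slc39a6 -0.032 to 0.019, Slc39a10 -0.12 to 0.044, Slc39a1 -0.069 to 0.026, Slc30a5 -0.10 to 0.017, Hmox1 -0.22 to 0.073, Slc30a5 probe A_55_P2580802 -0.14 to 0.072, Mt1 probe A_52_P423810 -0.15 to 0.26, Mtf1 probe A_52_P467266 -0.14 to 0.063. Leaving out 1 array, the ranges that crossed 0 for isorhamnetin against tamarixetin were Mt1 -0.093 to 0.033, Mt2 -0.14 to 0.040, Mtf1 -0.073 to 0.0068, Slc39a6 -0.031 to 0.00055, Mtf1 probe A_52_P467266 -0.20 to 0.017. Leaving out 1 array, the ranges that crossed 0 for Torin1 against control were Slc7a11 -0.015 to 0.080, Mtf1 probe A_52_P236072 -0.075 to 0.081. The mean of a gene's probes gives no value for single probes.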

Other observations

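Genes that glucocorticoids induce were listed because metallothioneins belong to that response too. Of 8 listed, 7 were tested, and with Torin1 against control 3 rose and 2 fell (19.3% and 30.1% of all genes did). Cebpd, a transcription factor, rose by 1.01 on the log2 scale (SE 0.0694, limma adjusted p = 0.000307) and Klf9, another, by 0.63 (SE 0.0762, adjusted p = 0.00169). Per1, a clock gene, fell by 1.14 (SE 0.0680, adjusted p = 0.000216) and Fkbp5, a receptor cochaperone, by 0.48 (SE 0.0542, adjusted p = 0.00133). With isorhamnetin and with tamarixetin 0 of 7 were called against control, where 0.543% and 0.079% of all genes were.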
